A study of Mus musculus with 6 samples.

Results

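Genes that move cholesterol out of the cell, store lipid in droplets or form the LXR and PPAR receptor system were followed in cultured mouse microglia that lacked the adaptor Dap12. The list named 10 genes: Abca1, Abcg1, Nr1h3, Nr1h2, Mylip, Plin2, Pltp, Soat1, Fabp5 and Pparg. A probe set was taken where the platform annotation gave exactly 1 gene symbol and that symbol was on the list. This found 13 probe sets of 8 genes, among 45101 probe sets in the table and 18193 genes with such a probe set. Nr1h2 and Soat1 were not analysed here. Of the 8 genes, 1 had 3 probe sets, 3 had 2 and 4 had 1.

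The series holds 6 arrays of primary cultures of microglia, the resident macrophages of the brain. Of these, 3 were Dap12-deficient (labelled Dap12-ko) and 3 were wild-type (labelled wt). Dap12 is encoded by Tyrobp and passes signals of receptors such as Trem2, which binds lipids, to the kinase Syk. The sources used here give no allele, strain, age, sex or culture conditions. Titles carry 1 or 2 numbers whose meaning is not explained, so an array may hold RNA of more than 1 culture, and nothing ties arrays to separate animals, so a p-value reflects only how far these samples scatter, which may be technical.

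LXR, encoded by Nr1h3 (LXR alpha) and Nr1h2 (LXR beta), is a nuclear receptor for oxidised cholesterol that binds DNA together with RXR. Its targets include the pumps Abca1 and Abcg1, which load cholesterol onto lipoprotein particles, Pltp, which transfers phospholipid between such particles, and Mylip, a ubiquitin ligase that removes the LDL receptor. PPAR gamma (Pparg) is a related receptor for fatty acids, which Fabp5 carries inside the cell. Soat1 esterifies cholesterol for storage, and Plin2 coats the droplets where esters and triglyceride are kept. Microglia that take up myelin or dying cells use this system to export or store the lipid.

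No probe set on the list passed the test between Dap12-deficient and wild-type cultures. With limma and Benjamini-Hochberg adjustment over 27022 probe sets, 0 of 13 had an adjusted p under 0.05, and the adjusted p lay between 0.374 and 0.975. The background was low as well, at 0.0074% of all probe sets (2 of 27022). At an unadjusted p under 0.05 there was 1 of 13, one of the Pltp sets, against 10.7% of all probe sets. Differences are given throughout as log2 of the signal plus 16, Dap12-deficient minus wild-type, a scale that understates differences of dim probe sets. On it 5 of the 13 were above 0 and 8 below. Their median was -0.08, against 0.03 over all probe sets tested, and the median absolute difference was 0.19, against 0.20. The 95% interval lay within 1 log2 unit of 0 on both sides for 11 of 13 probe sets, the exceptions being both Pltp sets. All 13 had a mean signal above the filter on dim probe sets.

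**Figure D1:**
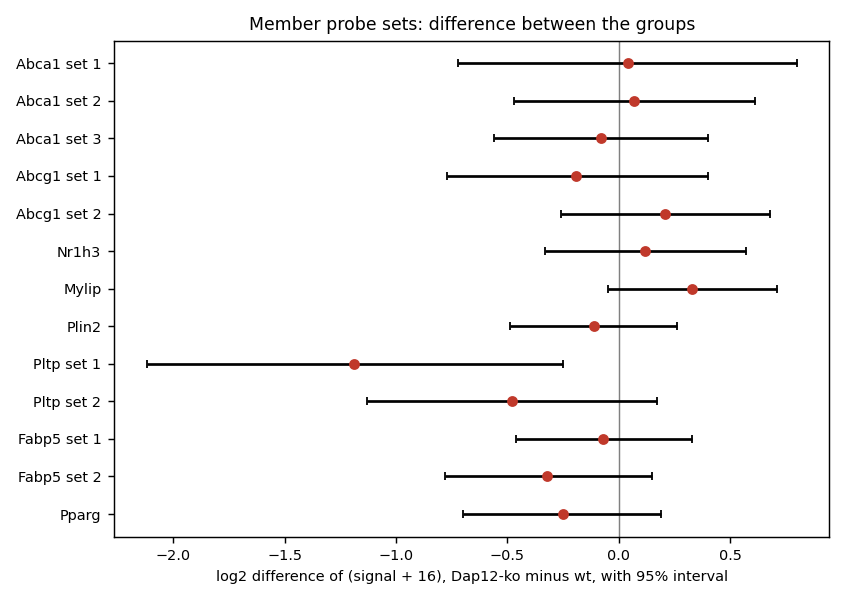
Points give the log2 difference of (signal + 16), Dap12-deficient minus wild-type, for each of the 13 probe sets (vertical axis), and bars the 95% interval from limma over 3 arrays in each group. The intervals of 12 probe sets include 0, and that of 1 Pltp set, at -1.19, does not; it did not pass after adjustment.

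The targeted gene separated the groups, although where its probes lie relative to the deleted part is not stated. Tyrobp gave signals of 125, 96.4 and 96.2 on Dap12-deficient arrays 1, 2 and 3, against 5584, 7271 and 5396 on wild-type arrays 1, 2 and 3, with a difference of -5.64 on the log2 scale (limma adjusted p = 8.14e-07). Median signals of whole arrays lay between 14.6 and 16.5 in Dap12-deficient cultures and between 11.9 and 14.0 in wild-type cultures. Of 12 microglial markers, 11 were measured, 1 higher and 10 lower, each above the median signal on every array. Their signals summed to between 17130 and 25633 in Dap12-deficient and between 21381 and 29594 in wild-type cultures. Sums of 6 border macrophage markers, 4 higher and 2 lower, were 4030 to 4841 in Dap12-deficient and 4365 to 4803 in wild-type cultures. For 5 oligodendrocyte precursor markers, 2 higher and 3 lower, they were 2128 to 2360 in Dap12-deficient and 2243 to 2456 in wild-type cultures. For 7 neuron markers, 3 higher and 4 lower, they were 125 to 223 in Dap12-deficient and 227 to 287 in wild-type cultures. Signals of 9 measured oligodendrocyte markers, all lower, summed to between 1490 and 6832 in Dap12-deficient cultures, against between 5579 and 9011 in wild-type cultures, and those of 10 astrocyte markers, 8 higher and 2 lower, to between 534 and 1535 in Dap12-deficient cultures, against between 566 and 992 in wild-type cultures. The Y-linked gene Eif2s3y gave 64.5, 141 and 176 on Dap12-deficient arrays, against 611, 571 and 649 on wild-type arrays. The X-linked gene Xist gave 2514, 2483 and 1228 on Dap12-deficient arrays, against 251, 277 and 1164 on wild-type arrays, so it was nearly level between array 3 of each group. Eif2s3y and Xist did not overlap between the groups, and neither did the sums of neuron markers. The sums of the other lists named so far overlapped. Fits with a term for Y-linked or myelin genes are given in the closing section. Since Eif2s3y split by group, the fit with the Y-linked term can hardly separate sex from the loss of Dap12. Beyond these fits, the part of sex and of other cells in the results was not tested. Of 6 endothelial markers, Pecam1, Cldn5, Cdh5 and Tek were below the filter on dim probe sets. Flt1 and Kdr were above the filter, with log2 differences of -0.77 and 0.48. Signals of Flt1 did not overlap between the groups, and those of Kdr did. Sums of the 6 overlapped, at 60.4 to 93.1 in Dap12-deficient and 64.7 to 99.2 in wild-type cultures. In whole cultures, fewer cells of a type and less RNA per cell cannot be told apart.

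Both cholesterol pumps had signals that overlapped between the groups. Abca1, the pump that loads cholesterol onto lipid-poor apolipoprotein, gave 5162, 4749 and 2770 in its brightest probe set (1421840_at) in Dap12-deficient cultures, against 3377, 4589 and 3783 in wild-type cultures. Dap12-deficient arrays 1 and 2 were the highest of the 6 and array 3 the lowest, so the wild-type values lay inside the Dap12-deficient range. The mean signal was 4227 ± 1280 in Dap12-deficient and 3916 ± 617 in wild-type cultures (SD, n = 3 each), a log2 difference of 0.07 (SE 0.24, 95% interval -0.47 to 0.61, limma adjusted p = 0.938). The interval allows a fold between 0.72 and 1.52.

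Both dimmer sets of Abca1 had the same array at the bottom. One (1421839_at) gave 145, 114 and 46.3 in Dap12-deficient cultures, against 60.9, 116 and 101 in wild-type cultures, a log2 difference of 0.04 (SE 0.34). The other (1450392_at) gave 42.5, 39.7 and 27.7 in Dap12-deficient cultures, against 28.0, 47.1 and 44.5 in wild-type cultures, a log2 difference of -0.08 (SE 0.22). All 3 sets of this gene thus had Dap12-deficient array 3 as their lowest value and differences near 0.

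Abcg1, which passes cholesterol to mature lipoprotein particles, had 2 probe sets whose differences lay on opposite sides of 0. The brighter (1423570_at) gave 1299, 1689 and 850 in Dap12-deficient cultures, against 1178, 1791 and 1315 in wild-type cultures. Its log2 difference was -0.19 (SE 0.26, 95% interval -0.77 to 0.40, limma adjusted p = 0.827), and again array 3 of the Dap12-deficient group was the lowest of the 6. The dimmer (1455221_at) gave 116, 148 and 91.4 in Dap12-deficient cultures, against 109, 99.0 and 88.0 in wild-type cultures, a log2 difference of 0.21 (SE 0.21). The groups overlapped in both sets.

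Mylip was the member whose Dap12-deficient arrays all lay above the wild-type ones. It encodes the ubiquitin ligase also called IDOL, and gave 1286, 1233 and 1177 in Dap12-deficient cultures, against 948, 1062 and 916 in wild-type cultures. The mean signal was 1232 ± 54.3 in Dap12-deficient cultures and 975 ± 76.9 in wild-type cultures (SD, n = 3 each), and the lowest Dap12-deficient value was above the highest wild-type value. The log2 difference of 0.33 (SE 0.17, 95% interval -0.05 to 0.71) did not pass (limma adjusted p = 0.523), and the exact two-sided permutation p was 0.1, the smallest that 3 against 3 arrays allow. Such a separation upwards was found in 9.6% of all probe sets tested, so 1 of 13 is near the background. The gap between the groups held when arrays were scaled to a common median, but the difference was then 0.08.

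Pltp had the widest differences of the list, in 1 of its 2 probe sets more than in the other. The first set (1417963_at) gave 39.1, 199 and 129 in Dap12-deficient cultures, against 239, 344 and 204 in wild-type cultures. Every Dap12-deficient value lay below every wild-type value, but array 2, at 199, was close to the lowest wild-type value of 204, and array 1 stood far below the rest. The mean signal was 122 ± 80.0 in Dap12-deficient and 262 ± 72.6 in wild-type cultures (SD, n = 3 each). The log2 difference was -1.19 (SE 0.42, 95% interval -2.12 to -0.25), which had an unadjusted p of 0.0175 and did not pass (limma adjusted p = 0.374, exact permutation p = 0.1). A separation downwards was found in 6.89% of all probe sets tested.

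The second Pltp set (1456424_s_at), of a type that can bind several transcripts, gave 146, 339 and 220 in Dap12-deficient cultures, against 253, 413 and 300 in wild-type cultures. The groups overlapped there, since Dap12-deficient array 2 lay above 2 of the wild-type arrays. Its log2 difference was -0.48 (SE 0.29, 95% interval -1.13 to 0.17, limma adjusted p = 0.593). Both sets ranked Dap12-deficient array 1 lowest and wild-type array 2 highest. Without Dap12-deficient array 1 the difference of the first set was -0.63, and without Dap12-deficient array 2 it was -1.61 (limma adjusted p = 0.098). The second set was at -0.20 and -0.76 without these arrays. A term for Y-linked genes turned the direction of both sets, to 0.71 (SE 1.11) and 0.66 (SE 0.82), with a limma adjusted p of 0.988 each. Eif2s3y, a part of that term, did not overlap between the groups. That fit can therefore hardly separate the term from the loss of Dap12, and the turned direction is not read as a result about sex. A term for myelin genes gave -2.15 (limma adjusted p = 0.207) and -0.96 (limma adjusted p = 0.284). The ratio of 3' to 5' signal of the Gapdh control sets, a measure of RNA integrity, was 3.58, 3.09 and 2.52 on Dap12-deficient arrays, against 3.29, 3.39 and 3.21 on wild-type arrays. For the Actb control sets it was 3.20, 2.40 and 1.81 on Dap12-deficient arrays, against 2.46, 3.38 and 3.94 on wild-type arrays. The part of RNA integrity in the Pltp signals was not tested.

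**Figure D2:**
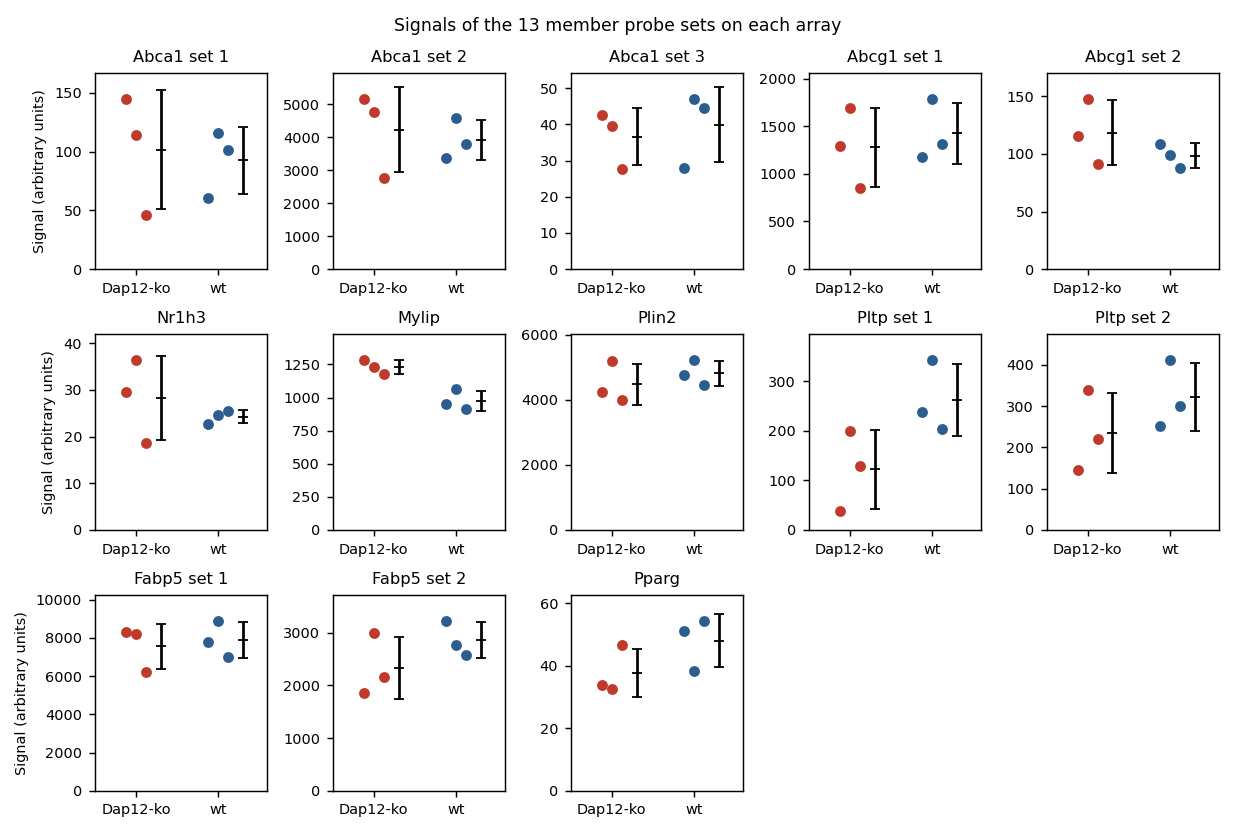
Signals in arbitrary linear units (vertical axes, each from 0) of the 13 probe sets, with 1 point per array for arrays 1, 2 and 3 from left to right, and the mean with its SD beside them. Sets of a gene are numbered by probe set identifier, so that Abca1 set 2 is the brightest of Abca1 and Pltp set 1 the one with a difference of -1.19; the points of the groups do not overlap for Mylip and Pltp set 1.

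The receptors themselves had signals not far above the added 16. Nr1h3, the LXR alpha gene and itself an LXR target in human macrophages, had 1 probe set (1450444_a_at) with 29.6, 36.5 and 18.7 in Dap12-deficient cultures, against 22.7, 24.7 and 25.4 in wild-type cultures. The Dap12-deficient values spanned the wild-type ones on both sides. The log2 difference was 0.12 (SE 0.20, 95% interval -0.33 to 0.57, limma adjusted p = 0.867). Pparg (1420715_a_at) gave 33.9, 32.6 and 46.6 in Dap12-deficient cultures, against 51.3, 38.4 and 54.5 in wild-type cultures. Dap12-deficient arrays 1 and 2 were the lowest of the 6 while array 3 lay among the wild-type values, and the log2 difference was -0.25 (SE 0.20, 95% interval -0.70 to 0.19, limma adjusted p = 0.674). At such signals the added 16 shrinks differences most.

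The storage and carrier genes overlapped between the groups in all 3 of their probe sets. Plin2, the coat protein of droplets, had 1 probe set (1448318_at) with 4224, 5174 and 4003 in Dap12-deficient cultures, against 4753, 5229 and 4465 in wild-type cultures. The mean signal was 4467 ± 622 in Dap12-deficient cultures and 4815 ± 386 in wild-type cultures (SD, n = 3 each). The log2 difference was -0.11 (SE 0.17, 95% interval -0.49 to 0.26, limma adjusted p = 0.839), which allows a fold between 0.71 and 1.20.

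PPAR gamma and RXR bind a direct repeat of the motif AGGTCA with 1 base between the copies, and LXR and RXR a repeat with 4 bases between them. Plin2 is shown because it was the only one of the genes with a window where a search found either repeat. The search covered both strands of the 250 bases before each RefSeq gene start (GRCm38.p6), for AGGTCANAGGTCA and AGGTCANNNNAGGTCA with at most 2 of the 12 motif bases differing. The match in Plin2, of the repeat with 1 base between, lay 225 to 213 bases before the start and read on the strand opposite to the gene. It is given on the strand of the gene (minus), chr4:86670260-86670296, with the matched bases in capitals.

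Plin2: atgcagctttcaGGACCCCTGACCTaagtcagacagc

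In all, 3.72% of 27025 genes held such a match of the repeat with 1 base between and 2.96% one of the repeat with 4. Windows of Abca1, Nr1h3, Mylip, Pltp and Pparg held neither, which says only that these letters are not in these windows, and Abcg1 and Fabp5 had no window in the table used here. A match is a description of the sequence and no evidence of binding.

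Fabp5, a fatty acid carrier that delivers ligands to nuclear PPARs, gave 8288, 8219 and 6200 in its brighter set (1416021_a_at) in Dap12-deficient cultures, against 7774, 8913 and 7007 in wild-type cultures. The groups overlapped, and the log2 difference was -0.07 (SE 0.18, 95% interval -0.46 to 0.33, limma adjusted p = 0.917). The dimmer set (1416022_at) gave 1852, 2989 and 2157 in Dap12-deficient cultures, against 3234, 2770 and 2585 in wild-type cultures. There Dap12-deficient arrays 1 and 3 lay below all wild-type arrays but array 2 was second highest of the 6, and the difference was -0.32 on the log2 scale (SE 0.21, limma adjusted p = 0.617).

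The arrays of the Dap12-deficient group did not move together on this list. Dap12-deficient array 3 gave the lowest of the 6 values in 7 of 13 probe sets, among them all 3 Abca1 sets, and the highest in 0. Arrays 1 and 2 of that group gave the highest in 3 and 2 and the lowest in 3 and 1. Such counts were not made over all probe sets, so a shift of a whole array cannot be told apart from a trait of this list. Wild-type array 2 gave the highest value in 6 and the lowest in 0. The median deviation of the 13 sets from the wild-type mean was 0.08, 0.11 and -0.34 on Dap12-deficient arrays 1, 2 and 3, and -0.06, 0.18 and -0.09 on wild-type arrays 1, 2 and 3. The summed signal of microglial markers had its lowest value on the same array (22307, 25633 and 17130 on Dap12-deficient arrays, against 23376, 29594 and 21381 on wild-type arrays). That of astrocyte markers had its highest value there (985, 534 and 1535 on Dap12-deficient arrays, against 992, 566 and 908 on wild-type arrays). The sums of oligodendrocyte markers (1490) and neuron markers (125) were also lowest on that array. The sum of border macrophage markers (4841) was also highest there. Sums of oligodendrocyte precursor, endothelial and fibroblast markers had neither their lowest nor their highest value on it. In 0 of these lists was a marker at 0 on all arrays, and the part of cell makeup in the member signals was not tested.

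Without Dap12-deficient array 3 the brightest Abca1 set had a log2 difference of 0.35 (limma adjusted p = 0.582) and non-overlapping arrays, as had the dimmer Abcg1 set (0.36, adjusted p = 0.617) and Nr1h3 (0.28, adjusted p = 0.670). Mylip was at 0.37 (adjusted p = 0.566) without that array, and still above. Pparg, at -0.37 (adjusted p = 0.606), and the first Pltp set, at -1.32 (adjusted p = 0.530), lay wholly below. With 5 arrays, separation is more common: 15.4% of all probe sets then lay wholly above and 10.9% wholly below, and 0 of 13 member sets passed.

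**Figure D3:**
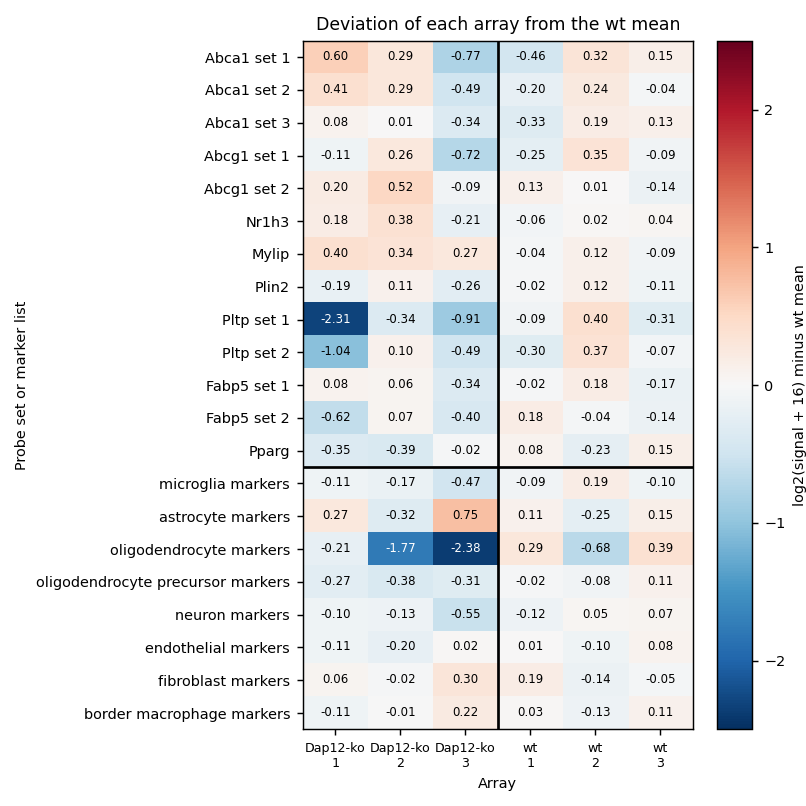
Each cell gives log2(signal + 16) minus the wild-type mean for a probe set, or the mean of this over the measured genes of a marker list (rows), on each array (columns, Dap12-deficient left of the line). Dap12-deficient array 3 is below 0 in 12 of 13 member rows and in the microglia row (-0.47), and the deepest member value is -2.31 for Pltp set 1 on Dap12-deficient array 1.

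Other genes of the pathway were read from 6 lists holding 88 genes together, of which 77 had a probe set and 68 were tested, each by its brightest tested set. None of the 68 passed limma's threshold, where 0.0155% of 12875 genes did, and 11 of 68 had an unadjusted p under 0.05, against 9.63% of all genes. Of the 68, 18 were above 0 and 50 below, with a median log2 difference of -0.14, against -0.03 over the 12875 genes, of which 54.8% were below 0. Arrays lay wholly above wild-type for 1 of 68, against 7.54% of all genes, and wholly below for 10 of 68, against 8.85%. Under other settings these lists were not refitted.

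Among genes of cholesterol uptake, release and oxidation, 3 of 15 were above 0 and 12 below, with a median of -0.14, and 0 passed. Ch25h, which makes an oxysterol that can activate LXR, gave 246, 211 and 194 in Dap12-deficient cultures, against 474, 633 and 403 in wild-type cultures. The highest Dap12-deficient value was well below the lowest wild-type value, at -1.14 on the log2 scale (SE 0.22, limma adjusted p = 0.255), the smallest adjusted p of the 68 genes by their brightest sets. Olr1, a receptor for oxidised LDL, gave 47.5, 37.5 and 24.5 in Dap12-deficient cultures, against 76.6, 70.4 and 104 in wild-type cultures, without overlap (-0.94, SE 0.23, adjusted p = 0.293). Scarb1, the HDL receptor, had -0.54 (SE 0.20), and its other sets -0.29 and -0.61. Lrp1, a large endocytic receptor that takes up apolipoprotein E, had -0.66 (SE 0.29) and -0.95 in its other set. On Lrp1, as on Pltp, Dap12-deficient array 1 was the lowest (99.1, 243 and 161 in Dap12-deficient cultures, against 230, 321 and 236 in wild-type cultures).

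Among further LXR targets, 2 of 13 were above 0 and 11 below, with a median of -0.23, and 0 passed. Lpl, the lipoprotein lipase, gave 4890, 3338 and 2320 in Dap12-deficient cultures, against 5923, 7637 and 5641 in wild-type cultures, without overlap (-0.91, SE 0.26, limma adjusted p = 0.335). Its dimmer set gave 352, 469 and 214 in Dap12-deficient cultures, against 1410, 1262 and 1078 in wild-type cultures. That difference, -1.87 (SE 0.27, adjusted p = 0.131), also did not pass and had the smallest adjusted p of all tested sets of the 68 genes. Apoc4, a minor apolipoprotein gene, was dim, with 3.82, 7.71 and 2.83 in Dap12-deficient cultures, against 21.0, 16.5 and 13.4 in wild-type cultures (-0.67, SE 0.19, adjusted p = 0.335). Cd5l, a secreted macrophage protein, had -0.61 (SE 0.25) and Apoc1 -0.37 (SE 0.26), and their arrays overlapped.

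Partners and coregulators of the receptors had 4 of 10 genes above 0 and 6 below, with a median of -0.16, and 0 passed. Rxra, the partner of both LXR and PPAR, gave 130, 268 and 171 in Dap12-deficient cultures, against 292, 327 and 247 in wild-type cultures. Dap12-deficient array 2 lay within the wild-type values (-0.61, SE 0.26, limma adjusted p = 0.440; other set -0.38). Ppard, the delta form of PPAR, was dim (-0.25, SE 0.18). The coactivators Med1 and Ncoa1 had 0.32 (SE 0.25) and 0.28 (SE 0.23), with other sets at 0.28, 0.43 and 1.0 for Med1 and at 0.03 for Ncoa1. The PPAR target list had 2 of 6 genes above 0 and 4 below, with a median of -0.06, and 0 passed. The fatty acid oxidation gene Acadl had -0.42 (SE 0.23) and the opposite sign, 0.17, in its other set. Fabp4 had 0.19 (SE 0.18), the mitochondrial import gene Cpt1a 0.17 (SE 0.25) and the scavenger receptor Cd36 -0.19 (SE 0.31), with other sets of Fabp4 and Cd36 on both sides of 0. The other sets of Cpt1a had larger differences, 0.48 and 0.91, which did not pass (limma adjusted p = 0.446 and 0.311).

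Of the genes of droplet storage and lipolysis, 3 of 15 were above 0 and 12 below, with a median of -0.10, and 0 passed. Dgat2, which completes triglyceride synthesis, gave 57.2, 51.1 and 58.2 in Dap12-deficient cultures, against 99.3, 77.8 and 115 in wild-type cultures. The groups did not overlap (-0.65, SE 0.20, limma adjusted p = 0.337), but its other set gave 0.24. Bscl2, the seipin gene needed to form droplets, gave 325, 416 and 479 in Dap12-deficient cultures, against 648, 531 and 576 in wild-type cultures (-0.52, SE 0.20, adjusted p = 0.416; other set -0.28). Acsl4, an acyl-CoA synthetase, had 0.31 (SE 0.19), with 0.52 and -0.35 in its other sets. Cideb, a droplet protein, was dim and had 0.43 (SE 0.30). It gave 14.1, 57.4 and 17.9 in Dap12-deficient cultures, against 14.1, 18.3 and 13.9 in wild-type cultures, so only Dap12-deficient array 2 stood out. Arrays of the brightest sets of Acsl4 and Cideb overlapped. Other transporters and fatty acid binding proteins split evenly, with 5 of 10 above and 5 below 0, a median of 0.03 and 0 passing. Abcg2, an efflux pump of many compounds, gave 220, 221 and 197 in Dap12-deficient cultures, against 304, 281 and 275 in wild-type cultures (-0.41, SE 0.18, adjusted p = 0.463). Fabp7, a carrier of astrocytes and their progenitors, had 0.40 (SE 0.26). Its highest value, 3646, was on Dap12-deficient array 3, where the summed signal of astrocyte markers, though not every marker, was highest. The part of astrocytes in the Fabp7 signal was not tested. Abcg4 had 0.30 (SE 0.26) and -0.27 in its other set.

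**Figure D4:**
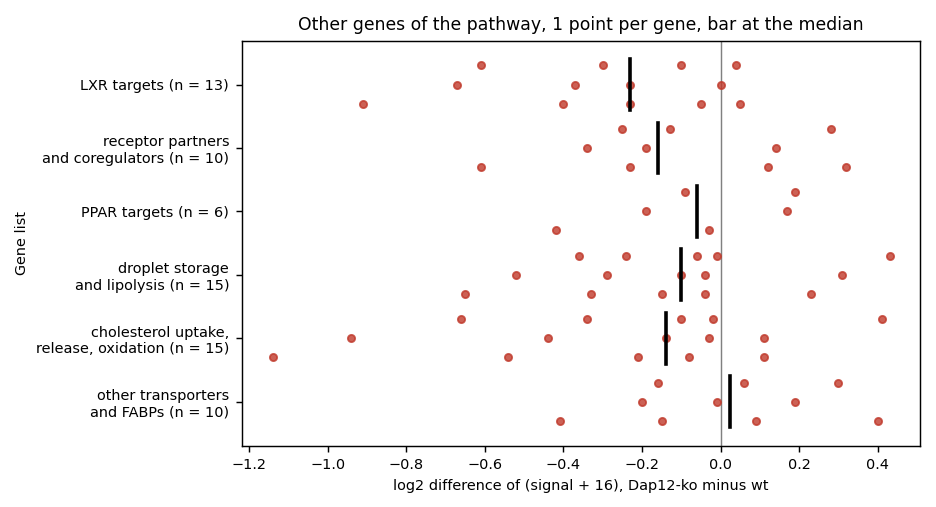
Each point is a gene of a list (vertical axis, with the number tested), by its brightest tested probe set, and the horizontal axis is the log2 difference of (signal + 16), Dap12-deficient minus wild-type; bars are medians. Medians lie between -0.23 (LXR targets) and 0.03 (other transporters and fatty acid binding proteins), and the lowest point is Ch25h at -1.14; 0 genes passed.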

How the data were processed

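The authors deposited an intensity per probe set, on a linear scale, for 6 single-colour arrays of biotin-labelled total RNA, per the labels' protocols. The submitters' processing notes name GCOS, without a version. Its summary algorithm was not stated, and no detection calls were used. With 2% of values trimmed at both ends, every array had a mean of 100.0, so signals had been scaled to 1 target and were used as deposited.

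Groups came from the labels, and replicates were numbered in order of deposit, so numbers pair nothing. No 2 arrays shared a value. Of 45101 probe sets, 64 controls were left out, and 34945 of the rest had 1 gene symbol, 932 several and 9160 none in the platform annotation. Probe sets with a mean signal at or above the 40th percentile (8.512) were tested, in all 27022, on log2(signal + 16) with limma 3.58.1 in R 4.3.3 (lmFit, eBayes with an intensity trend, two-sided, no covariate), with Benjamini-Hochberg adjustment over the whole table and a threshold of 0.05. The 95% intervals are from the same fit.

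The members and lists were chosen with earlier results of these data known. The text names every member, Tyrobp, and of each list the 4 genes with the smallest unadjusted p. Eif2s3y and Xist were chosen after their values were seen. As alternatives, the pseudocount was 1 or 64, arrays were quantile normalized or brought to a common median, the filter was dropped or raised to the 60th percentile, the trend was dropped, sets of the s, x and a types (which may match several transcripts) were removed, and each array was left out. In separate fits a covariate for Y-linked or for myelin genes was also added. It was the average on the log2 scale over all tested probe sets of Eif2s3y, Kdm5d and Uty, or of Mbp, Mobp, Mog, Mag and Ugt8a.

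On simulated data with the means and spreads of these arrays, 10 runs over 27022 probe sets with 200 changed, log2 changes of 1, 1.5, 2 and 3 were called in 29.0%, 69.2%, 83.4% and 96.6% of cases. These shares hold for 200 changed probe sets and may be too high for the data, where 2 of 27022 passed. Sequences are from RefSeq (GRCm38.p6). The arrays name no build, so no probe coordinates are given. Plots used matplotlib 3.10.9 in Python 3.11.15.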

Additional observations from a re-analysis of the deposited data

How the results depend on the processing

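The count of member probe sets past the threshold was 0 under each of the 16 alternatives, and the smallest adjusted p among 204 member differences was 0.098. Fabp5 (1416022_at), Mylip and Plin2 kept their sign throughout, with -0.57 to -0.17, 0.08 to 0.40 and -0.37 to -0.04. With a common median, which moved the median of all probe sets to -0.16, the members' median was -0.32 and 4 of 13 sets had non-overlapping arrays, against 2, while the share over all probe sets was 22.4%, against 16.5%. Values then turned to -0.17 and -0.18 for Abca1 (1421839_at and 1421840_at), -0.04 for Nr1h3 and -0.01 for Abcg1 (1455221_at). With the Y-linked term they turned to -1.03 and -0.83 for the same Abca1 sets, -0.21 for Nr1h3, -0.32 for Abcg1 (1455221_at), 0.71 and 0.66 for the Pltp sets and 0.17 for Pparg, with adjusted p of at least 0.988. The SE of every member set was larger in that fit, at 0.99 against 0.34 for Abca1 (1421839_at) and 0.62 against 0.20 for Pparg. Eif2s3y, a part of that term, did not overlap between the groups, so the fit can hardly separate the term from the loss of Dap12. The turned signs are therefore not read as results, and their cause was not tested. The myelin term turned Fabp5 (1416021_a_at) to 0.05 and Abca1 (1450392_at) to 0.05, and without a turned sign it moved the Pltp sets to -2.15 and -0.96 and the other Abca1 sets to 0.58 and 0.40, with adjusted p of at least 0.207. Leaving out 1 array gave a range of -0.24 to 0.45 for Abca1 (1421839_at), -0.10 to 0.35 for Abca1 (1421840_at), -0.24 to 0.05 for Abca1 (1450392_at), -0.41 to 0.07 for Abcg1 (1423570_at), -0.02 to 0.28 for Nr1h3, -1.61 to -0.63 and -0.76 to -0.20 for the Pltp sets and -0.15 to 0.07 for Fabp5 (1416021_a_at). Sets with non-overlapping arrays numbered 5 without Dap12-deficient replicate 2 and 6 without replicate 3 of that group, and 2 to 6 over all such fits, while over all probe sets the share was 31.2% and 26.2% in those 2 fits and 24.4% to 31.2% over all. Over all probe sets 5 passed with a common median, 5 with the myelin term, 1 with the Y-linked term, 1 without sets that can bind several transcripts, and 2 to 172 when 1 array was left out, with 15 without Dap12-deficient replicate 1 and 172 without replicate 2, against 2. With 3 arrays in each group, log2 changes of 1 were called in 29.0% of simulated cases, so smaller ones would mostly be missed.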
